A study of Mus musculus with 24 samples.

Results

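The genes described here are 29 mouse genes of the peroxisome among the 52089 gene symbols of the expression table. They comprise 13 peroxins, which build the organelle, 14 enzymes of its lipid and hydrogen peroxide metabolism, and 2 proteins of its membrane, Pxmp2 and Pxmp4. All 29 symbols were found. Each gene is represented by its RefSeq mRNA entry with the highest mean over the 24 libraries. The libraries came from brite adipocytes, which are fat cells of white depots with heat-producing features of brown fat. The cells were primary preadipocytes isolated from inguinal white fat (its stromal vascular fraction) of 129SvEv mice, given as male 129S6sv/ev in the study's methods, and all of them received rosiglitazone, a PPARγ agonist, with the induction cocktail. After 1 day of differentiation they were reverse transfected with 50 nM of an LNA gapmer, a short modified DNA strand that pairs with an RNA and has it cut by RNase H. The gapmer was aimed at the long noncoding RNA Ctcflos (KD) or was nontargeting (control), and RNA was taken 24 h or 72 h later, with 6 libraries in each of the 4 groups. The study describes separate gapmers against different Ctcflos transcripts, and the labels do not say which of them a KD library received. The question of each comparison is which peroxisome genes differ between KD and control cells at that time.

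Peroxisomes shorten very long and branched fatty acids, begin the synthesis of ether lipids and break down the hydrogen peroxide that their oxidases make. Their membrane proteins are inserted with the help of Pex3, Pex16 and Pex19. Matrix enzymes are carried by the receptors Pex5 and Pex7 to a docking site formed by Pex13 and Pex14, after which the RING proteins Pex2 and Pex10 mark the receptor and the ATPase Pex6, anchored by Pex26, recycles it. Proteins of the Pex11 family elongate and divide the organelle. In fat cells peroxisomes multiply with heat-producing differentiation, and many of the enzymes are known targets of PPARα and PPARγ, nuclear receptors that bind DNA together with RXR.

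The depth recovered from the table ran from 1391643 reads in KD 24 h replicate 6 to 5423316 in control 24 h replicate 2 over 23 libraries, with a median of 3993548. The depth of control 72 h replicate 6 is uncertain, since most of its low read numbers were even, and is 5926272 as recovered or 2963136 if each read made 2 steps. Replicates 2 and 3 of the 72 h control agree within sampling noise (0.31 of the noise that counting gives, the next lowest pair 1.58) and were counted as 1 sample, so n = 5 in that group and n = 6 elsewhere. The study calls its replicates biological, but the labels do not say whether they are separate cultures, so p-values measure the spread between these samples. By their deviations from the group means, 16 libraries formed one cluster, here the larger, and 8 another, the smaller, which held 2 samples of every group. The source of this split is not given in the labels, and values within clusters stand beside the results. Ctcflos itself, read from its cDNA entry AK079954, had 0.23 ± 0.35 scaled RPKM in KD cells against 1.71 ± 0.94 in control cells at 24 h, with overlapping groups, and 0.30 ± 0.35 against 2.78 ± 0.92 at 72 h, without overlap (SD, n = 5 or 6). Another of its entries, the Ensembl transcript ENSMUST00000144256, had 0.25 ± 0.38 against 0.42 ± 0.24 at 24 h and 0.10 ± 0.18 against 1.47 ± 0.99 at 72 h, with overlapping groups at both times. The study names this Ensembl entry transcript 1 and states that its global transcriptome work centred on it. AK079954 is listed there among other isoforms, at which separate gapmers were aimed. Further Ctcflos entries that the study names are not given here. In the check of the cell type, Ucp1, the uncoupling protein that marks heat-producing fat cells, was present in every library at 44.3 scaled RPKM or more.

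In control cells the enzymes held the highest levels among the 29 genes. All levels are scaled RPKM, that is, reads divided by transcript length and library size, brought to a common scale over the samples. These libraries read the 3′ ends of transcripts, so division by length lowers long transcripts against short ones, and the order between genes is approximate. Ech1, a dienoyl-CoA isomerase of fatty acid oxidation, stood first at 24 h with 434 ± 20.97 (SD, n = 6). Catalase (Cat), which degrades hydrogen peroxide, followed with 308 ± 19.2, and the sterol carrier and thiolase Scp2 with 179.5 ± 4.33. The ranges of these 3 genes did not overlap each other or that of the next gene, Hsd17b4, at 90.2 ± 6.95. Hydration and dehydrogenation of straight and branched chains are catalysed by Hsd17b4. Among the peroxins Pex16 (67.9 ± 5.16), Pex2 (67.1 ± 5.23) and Pex19 (59.5 ± 2.72) were highest, and each overlapped its neighbour in this order. The lowest levels were those of Pex10 (1.86 ± 0.76), Pex26 (1.37 ± 0.76) and Pxmp2 (0.75 ± 0.79). Pxmp2 rested on 1.0 to 3.7 reads per library on average in the 4 groups. At that depth no difference was detectable, and Pxmp2 did not pass the filter on low values that the other 28 genes passed. Hepatocyte genes were near the floor, with Ttr and Serpina1a at 0 in all samples and a summed level of 5 listed genes of at most 5.64.

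**Figure D1:**
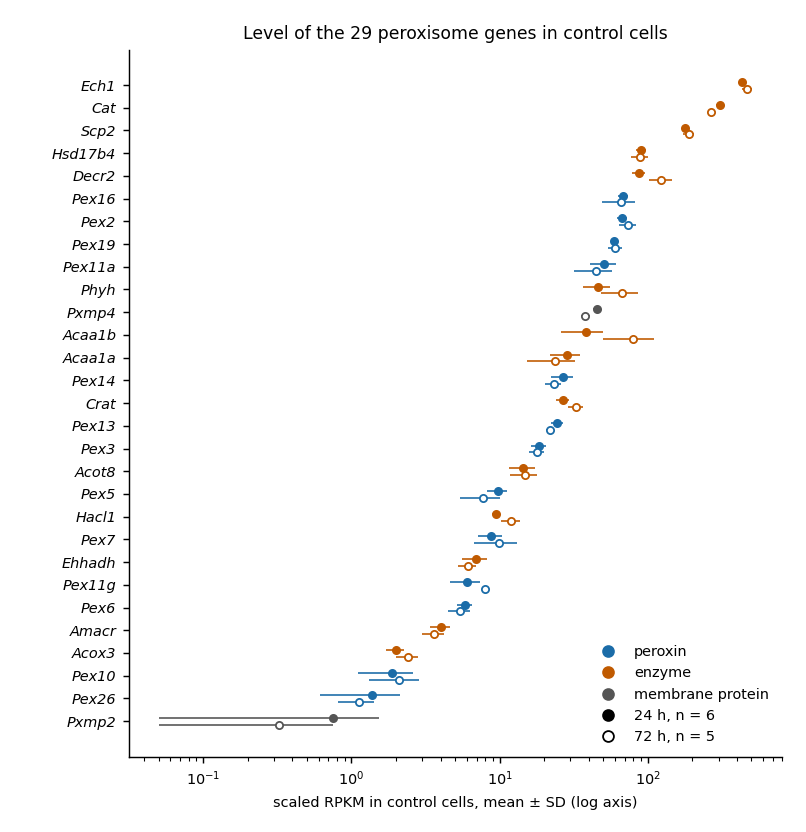
Level of each of the 29 peroxisome genes in control cells, as mean ± SD of scaled RPKM on a log axis, at 24 h (filled, n = 6) and 72 h (open, n = 5), ordered by the 24 h mean; error bars that would pass below 0.05 are cut there. Enzymes such as Ech1 and Cat lie at the top, the peroxins Pex16, Pex2 and Pex19 lie between 59.5 and 67.9 at 24 h, and Pxmp2 lies at the floor.

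Few of the genes passed the test of time in control cells. From 24 h to 72 h, 2 of the 28 tested genes passed an adjusted p of 0.05 (limma, Benjamini-Hochberg over all entries), both enzymes and both higher, against 9.21% of all genes called and 5.01% called higher. The median log2 change of the members was -0.0013, beside 0.01 over all genes. Acaa1b, a 3-ketoacyl-CoA thiolase that performs the last step of the cycle, had 22.6, 42.003 and 52.4 at 24 h (lowest, median, highest) and 112, 96.8, 41.8, 55.3 and 92.9 at 72 h. Its log2 change was 1.05 ± 0.27 (SE, adjusted p = 0.026), with overlapping groups, and the call was lost without control 24 h replicate 5 or 6 or control 72 h replicate 1, 2 and 3, or 6 (adjusted p = 0.055 to 0.077). The near copy Acaa1a had a log2 change of -0.29 ± 0.23 (SE, limma adjusted p = 0.49). GENCODE transcripts of the pair are 92.9% identical over 1637 aligned bases, so reads may have been split between them and both values are uncertain. Decr2, a dienoyl-CoA reductase for unsaturated chains, rose by 0.49 ± 0.12 (SE, adjusted p = 0.018) from 87.3 ± 8.89 to 123 ± 21.5. Without control 72 h replicate 1, or 2 and 3, its adjusted p was 0.058 or 0.053.

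Ctcflos KD changed 5 of the 28 tested members at 24 h and 5 at 72 h. At 24 h, Pex11a rose, and Pex14, Pex16, Hsd17b4 and Phyh fell. At 72 h, Pex13, Hsd17b4, Phyh, Scp2 and Ech1 fell, and no member rose. This is 17.9% of the tested members at either time, against 22.8% of all genes at 24 h and 23.2% at 72 h. With 28 genes tested, shares this near do not set the members apart from the transcriptome. By direction, 4 of the 28 were called lower and 1 higher at 24 h, and 5 lower and 0 higher at 72 h. Over all genes 11.6% were called lower and 11.2% higher at 24 h, and 12.9% and 10.3% at 72 h. The log2 difference was below 0 for 21 of 28 members at either time, with a median of -0.17 at 24 h and -0.28 at 72 h, beside -0.01 and -0.01 over all genes tested. Adipocyte markers, given with their values further on, included lower calls in KD cells as well, and in bulk samples fewer cells of a type and less RNA per cell cannot be told apart. Direction at 72 h depends on the scale: on the deposited RPKM without further scaling the median of all genes was itself 0.24, 4 members (Pex5, Pex6, Pex11a and Acot8) were called at 72 h, all of them higher, where 29.9% of all genes were called and 79.0% of those calls were higher (44.5% on the scale used here), and none of the 5 named above was called, although their values stayed below 0. Changes at 72 h are therefore given relative to the bulk of the transcriptome.

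**Figure D2:**
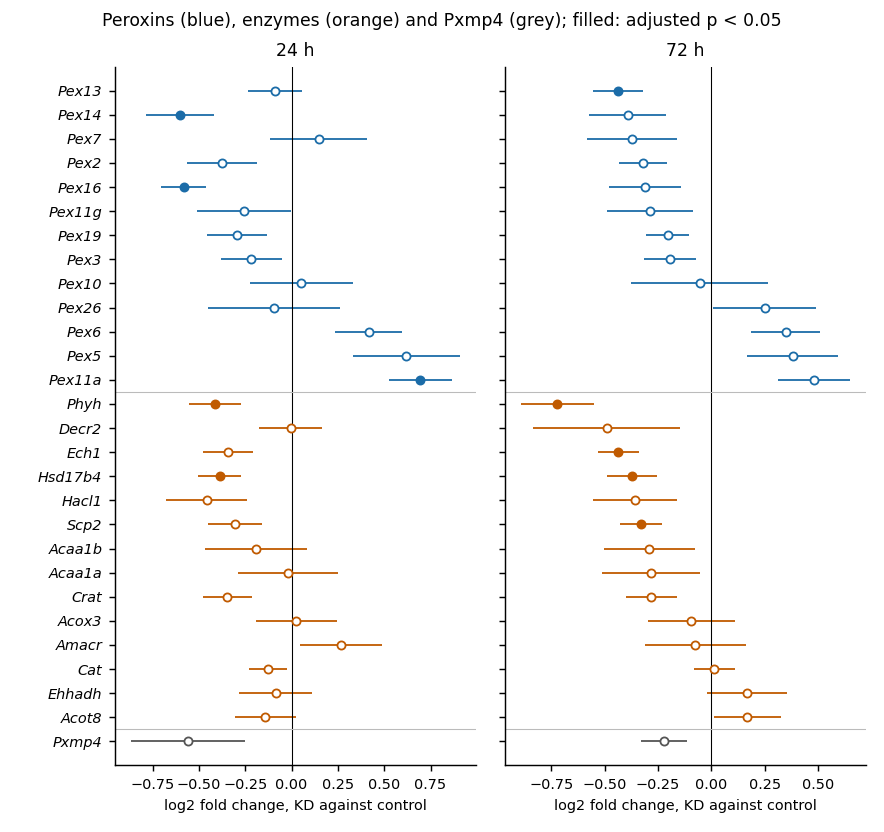
Log2 fold change of KD against control (± SE, limma) for the 28 tested peroxisome genes at 24 h and 72 h, peroxins at the top, enzymes below and Pxmp4 last, each ordered by the 72 h value. Filled points passed an adjusted p of 0.05; 21 of 28 points lie below 0 in each panel, and Pex11a, Pex5 and Pex6 lie above 0 in both.

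Among the proteins that insert the membrane, Pex16 fell at 24 h. Control libraries had 59.99, 70.04 and 73.2 scaled RPKM (lowest, median, highest) and KD libraries 37.8, 43.1 and 56.1, a log2 difference of -0.58 ± 0.12 (SE, adjusted p = 0.0045). Every KD library lay below every control library, and Pex16 differed by -0.78 within the larger cluster and by -0.23 within the smaller. At 72 h the control values of Pex16 were 85.0, 71.1, 44.4, 53.4 and 73.8 and the KD values 39.0, 51.5 and 62.3, with a difference of -0.31 ± 0.17 (adjusted p = 0.21). Here the groups overlapped, and the lower pair of controls belonged to the smaller cluster. Pex3 and Pex19 had values between -0.29 and -0.19 at both times and did not pass the test. Read from its highest entry of any database, Pex3 passed at 72 h (-0.44 ± 0.13 SE, limma adjusted p = 0.026). An exon of Large2 on the opposite strand overlaps Pex16 by 127 bp in GENCODE, and the strand handling of the mapping is not given in the sources used here.

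At the docking site, Pex14 fell at 24 h and Pex13 at 72 h. Pex14 had 23.7, 25.1 and 35.99 in control and 11.7, 18.5 and 23.4 in KD libraries at 24 h, a log2 difference of -0.60 ± 0.18 (SE, adjusted p = 0.028) without overlap. The difference was of similar size in the larger (-0.58) and the smaller cluster (-0.69). The call was lost without KD 24 h replicate 2 or 5 or control 24 h replicate 5 (adjusted p = 0.062 to 0.066), and the value at 72 h was -0.39 ± 0.18 (adjusted p = 0.13), or -0.51 without KD 72 h replicate 3 (adjusted p = 0.034). Pex14 spans 139.3 kb on chromosome 4, where 1776 bp of its exons are shared with the antisense gene Gm17029, so reads of the pair cannot be told apart without strand. Pex13 had control values of 22.6, 20.8, 22.7, 20.4 and 22.3 at 72 h and KD values of 14.03, 15.4 and 21.2, a log2 difference of -0.44 ± 0.12 (SE, adjusted p = 0.017). Of its 6 KD libraries 5 lay below all controls, and the remaining one was replicate 5 of the smaller cluster. With the replicate number as a block in the fit, the call of Pex13 was lost (limma adjusted p = 0.083). At 24 h Pex13 stood at -0.09 ± 0.15 (adjusted p = 0.69), and the change in its KD effect between the times did not pass the test (-0.33 ± 0.18, adjusted p = 0.49).

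The receptors and their recycling factors gave no call in the main fit over all samples. Pex5, the receptor for most matrix enzymes, had control values of 8.54, 8.97 and 12.1 and KD values of 7.79, 12.5 and 30.9 at 24 h (lowest, median, highest). Its log2 difference of 0.62 ± 0.29 (SE, adjusted p = 0.13) was 0.40 without the shallow KD 24 h replicate 6, and 0.80 without KD 24 h replicate 3, where it passed the test (adjusted p = 0.041). Pex6 had values of 0.42 ± 0.18 and 0.35 ± 0.16 at 24 h and 72 h (adjusted p = 0.11 and 0.14), and at 24 h 0.52 without KD replicate 4 (adjusted p = 0.040). Pex7, Pex10 and Pex26 had values of opposite sign at 24 h and 72 h, with adjusted p between 0.23 and 0.92. Pex2 had -0.38 ± 0.19 and -0.32 ± 0.11 (adjusted p = 0.16 and 0.054), and passed the test at 72 h without KD replicate 5 or control replicate 1 (adjusted p = 0.041 and 0.047). Over all samples Pex2 also passed at 72 h with voom on recovered reads (adjusted p = 0.043) and with 24 separate libraries (limma adjusted p = 0.045). The same held for its highest entry of any database (0.046) and with the cluster as a term (0.016).

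In the division family, Pex11a was the member that rose. This gene, an inducible member of the family in liver and fat, had 33.9, 52.6 and 60.1 in control and 52.6, 87.01 and 94.2 in KD libraries at 24 h. Its log2 difference was 0.69 ± 0.17 (SE, adjusted p = 0.011), and 5 of 6 KD libraries lay above all controls. At 72 h the control values were 55.0, 58.6, 34.5, 29.8 and 44.4 and the KD values 51.1, 59.9 and 74.3, a difference of 0.48 ± 0.17 that did not pass the test (adjusted p = 0.056). It passed without control replicate 1 (0.57, adjusted p = 0.039), without control replicates 2 and 3 (0.59, adjusted p = 0.028), and with the cluster as a term in the fit (0.46, adjusted p = 0.043). The difference was larger in the smaller cluster (1.07 at 24 h and 1.01 at 72 h) than in the larger one (0.49 and 0.15). Its relative Pex11g had -0.26 ± 0.25 and -0.29 ± 0.20 (adjusted p = 0.48 and 0.33). Across the 13 peroxins 3 were called at 24 h (1 higher, 2 lower) and 1 at 72 h (lower), which is 23.1% and 7.69% beside 22.8% and 23.2% of all genes.

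**Figure D3:**
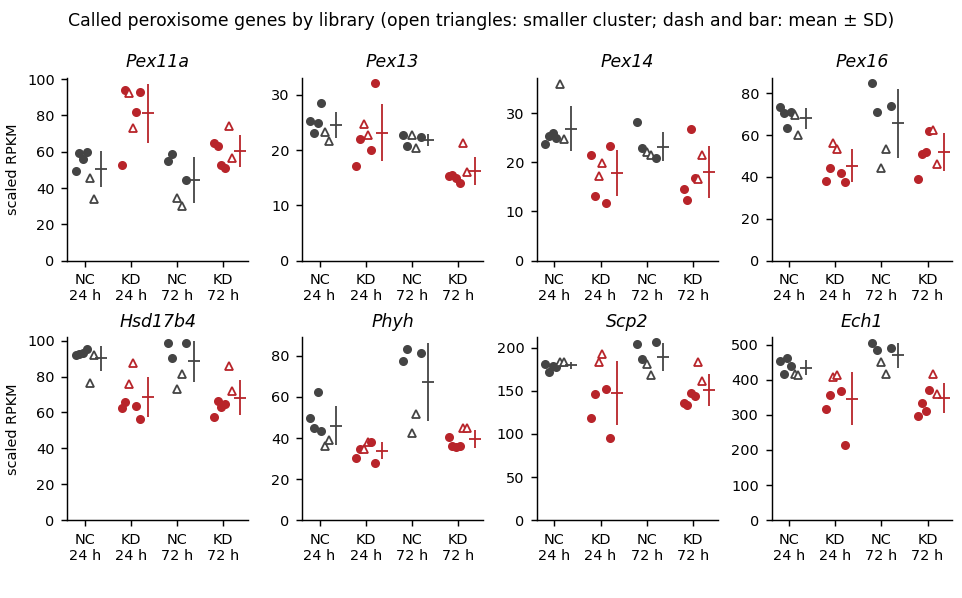
Scaled RPKM of the 8 members called at 24 h or 72 h, 1 point per sample, with control (NC) in grey and KD in red; triangles mark the smaller cluster of libraries, and the dash and bar give the mean ± SD. Pex16, Pex14 and Ech1 separate fully at 24 h, Pex11a lies higher in KD cells, and for Hsd17b4, Phyh, Scp2 and Ech1 the triangles of KD and control lie closer together than the circles.

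The 14 enzymes gave 2 calls at 24 h and 4 at 72 h, all lower, which is 14.3% and 28.6%. Over all genes, 22.8% and 23.2% were called in either direction, and 11.6% and 12.9% were called lower. Their median log2 difference was -0.17 at 24 h and -0.29 at 72 h. The 13 peroxins had medians of -0.09 and -0.20. Hsd17b4 fell at both times. At 24 h its control values were 76.2, 92.3 and 95.2 and its KD values 56.6, 64.7 and 87.8 (-0.39 ± 0.11 SE, adjusted p = 0.026), and at 72 h the controls had 98.9, 90.2, 72.9, 81.6 and 98.5 and the KD libraries 57.5, 65.6 and 86.0 (-0.37 ± 0.12, adjusted p = 0.034). The groups overlapped at both times, with 5 of 6 KD libraries below all controls. Both calls were narrow: at 24 h leaving out any of KD replicates 1, 2 and 5 or control replicates 1, 3 and 4, and at 72 h any of KD replicates 1 to 4 or control replicates 1, 2 and 3, or 6, gave adjusted p between 0.051 and 0.083.

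Phyh, which starts the degradation of phytanic acid, fell most among the called members at 72 h. Its control values were 77.6, 83.1, 42.6, 51.7 and 81.4 and its KD values 35.5, 38.2 and 44.7, a log2 difference of -0.72 ± 0.17 (SE, adjusted p = 0.0077). The groups overlapped through 1 control of the smaller cluster. At 24 h Phyh had 36.3, 44.1 and 62.6 in control and 27.8, 34.6 and 38.0 in KD libraries (-0.41 ± 0.14, adjusted p = 0.045). That call was lost in 9 of the 12 fits without 1 library, those leaving out KD replicate 1, 2, 3, 5 or 6 or control replicate 1, 2, 3 or 4 (adjusted p = 0.055 to 0.096). Hacl1, the lyase that follows in the same pathway, had -0.46 ± 0.22 and -0.36 ± 0.20 (adjusted p = 0.14 and 0.21). Its exons overlap those of Gm49387 on the same strand by 1540 bp, so its counts are uncertain.

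Scp2 and Ech1, which were among the most abundant members, fell at 72 h. Scp2 had 205, 186, 181, 168 and 206 in control and 134, 146 and 183 in KD libraries (-0.33 ± 0.10 SE, adjusted p = 0.026), 5 of 6 KD libraries lying below all controls. Without KD 72 h replicate 1 or 2 or control 72 h replicate 1 or 6 the adjusted p was 0.059 to 0.063. Ech1 had 505, 485, 452, 415 and 491 in control and 298, 346 and 415 in KD libraries (-0.44 ± 0.10 SE, adjusted p = 0.0052), and only the highest KD library, replicate 5 of the smaller cluster, reached the lowest control. With the replicate number as a block in the fit, the call of Ech1 was lost (limma adjusted p = 0.055). For Ech1 the values at 24 h were 414, 429 and 463 in control and 213, 362 and 414 in KD libraries, which did not overlap, although the difference of -0.34 ± 0.14 missed the threshold (adjusted p = 0.083) and passed it without KD 24 h replicate 4 (-0.40, adjusted p = 0.047). Scp2 had -0.31 ± 0.15 at 24 h (adjusted p = 0.14).

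The remaining enzymes were not called at either time in the main fit over all samples. Catalase had 0.01 ± 0.10 at 72 h (SE, adjusted p = 0.94), and its KD libraries ranged from 225 to 328 around the control range of 246 to 281. Crat, which moves acetyl groups onto carnitine, had -0.35 ± 0.13 and -0.28 ± 0.12 (adjusted p = 0.070 and 0.11). At 24 h Crat passed with all groups in 1 fit (-0.36, limma adjusted p = 0.031). It also passed from its highest entry of any database (-0.41, adjusted p = 0.041). Ehhadh, Acot8, Amacr, Acox3, Acaa1a, Acaa1b and Decr2 had values from -0.49 to 0.27 over both times, and Acaa1b passed the test at 72 h without control replicate 4 (-0.50, adjusted p = 0.045). Decr2 at 72 h was divided by cluster: KD libraries of the smaller cluster had 45.1 and 35.8, while the other 4 had 105 to 160.4 and the controls 86.0 to 142. Pxmp4, in the membrane, had -0.56 ± 0.31 and -0.22 ± 0.11 (adjusted p = 0.20 and 0.15). Read from its highest entry of any database, Pxmp4 passed the test at 72 h (-0.46 ± 0.11 SE, limma adjusted p = 0.0074).

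Within the larger cluster, where 4 KD libraries were set against 4 controls at 24 h and 3 control samples at 72 h, more enzymes were called. There 6 of 14 enzymes fell at 24 h (Hsd17b4, Phyh, Crat, Scp2, Hacl1 and Ech1) and 7 of 14 at 72 h (Hsd17b4, Acaa1a, Acaa1b, Phyh, Crat, Scp2 and Ech1), with medians of -0.35 and -0.49. Over all genes, 25.4% and 25.2% were called in these fits. In the smaller cluster, with 2 libraries against 2, the enzyme medians were 0.02 and 0.08, and 0 of 14 and 1 of 14 (Decr2) were called against 2.74% and 10.8% of all genes. Phyh at 72 h differed by -1.12 in the larger and by -0.07 in the smaller cluster, and Hsd17b4 by -0.60 and 0.03. Whether the KD effect differs between clusters was not tested, since the clusters were drawn from the data. With the cluster as a term, an alternative added after the data were seen, 5 members were called at 24 h (27.6% of all genes) and 7 at 72 h (27.3%), those being the 5 named above together with Pex2 (lower) and Pex11a (higher).

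**Figure D4:**
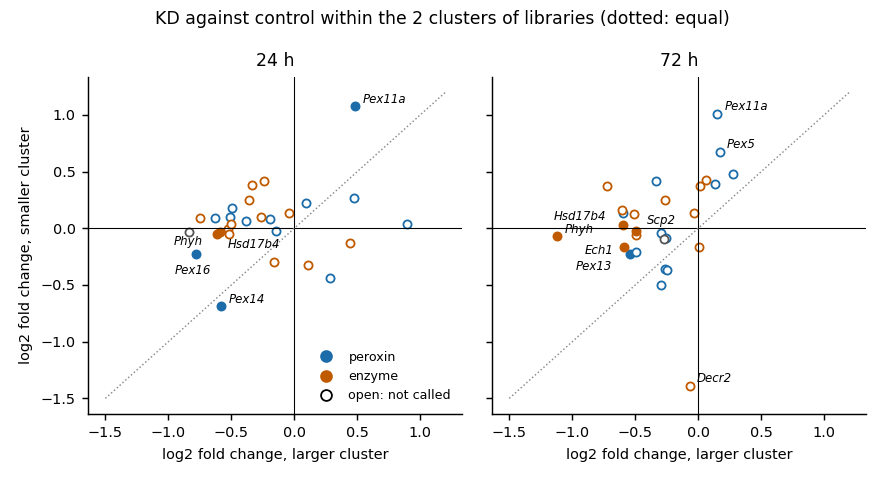
Log2 fold change of KD against control within the larger cluster (horizontal axis) and the smaller cluster (vertical axis) of libraries for the 28 tested members, at 24 h and 72 h, with filled points for those called over all libraries and a dotted line of equal values. Phyh at 72 h lies at -1.12 and -0.07, most enzymes lie left of and near the horizontal zero line, and Pex14 at 24 h lies near the dotted line.

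None of the 28 members changed its KD effect between 24 h and 72 h beyond the spread (smallest adjusted p = 0.49 in limma, 0 members with an unadjusted p under 0.05), against 0.267% of all genes. The voom fit on recovered reads also gave 0 members. Differences between the calls at the 2 times are therefore not shown to be differences of the effect.

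A second list held 60 other genes of the peroxisome. Of these, 42 passed the filter at each time, and 11 were called at 24 h, all lower, and 18 at 72 h, of which 15 were lower and 3 higher. That is 26.2% and 42.9% of those tested, beside 22.8% and 23.2% over all genes, with medians of -0.15 and -0.22. On the deposited scale the calls at 72 h were 15, of which 8 were higher and 7 lower. The genes Abcd3, Acbd4, Gnpat, Dhrs7b, Lonp2, Nudt7, Ephx2, Idh1 and Acad11 fell at both times. Nudt7, which hydrolyses coenzyme A in peroxisomes, fell from 99.9 ± 18.4 to 55.8 ± 8.56 at 24 h and from 144 ± 17.1 to 62.9 ± 14.1 at 72 h (log2 -0.82 ± 0.15 and -1.21 ± 0.15 SE, adjusted p = 0.0022 and 9.75e-05), without overlap. Acad11 and Ephx2 differed by -1.11 ± 0.19 and -1.02 ± 0.14 at 72 h, and the protease Lonp2 by -0.87 ± 0.13 at 24 h. Gnpat, which starts ether lipid synthesis, had -0.66 ± 0.14 and -0.75 ± 0.11 (adjusted p = 0.0043 and 0.00042), whereas Agps and Far1 of the same pathway were not called. Sod1, which also resides in the cytosol, fell at 72 h (-0.85 ± 0.26, adjusted p = 0.033).

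Transporters of acyl chains went in different directions. Abcd3, the transporter of branched and long acyl chains, fell at both times (-0.68 ± 0.18 and -0.95 ± 0.15 SE, adjusted p = 0.015 and 0.00066), while Abcd2 rose at 72 h (0.43 ± 0.13, adjusted p = 0.032). Crot, which attaches medium chains to carnitine for export, had control values of 19.5, 19.4, 25.4, 22.1 and 19.2 and KD values of 37.4, 44.4 and 47.3 at 72 h, a rise of 1.03 ± 0.11 (adjusted p = 3.6e-05) without overlap. The difference of Crot was present in both clusters (1.23 and 0.70). Gstk1 also rose at 72 h (0.68 ± 0.16, adjusted p = 0.0085).

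**Figure D5:**
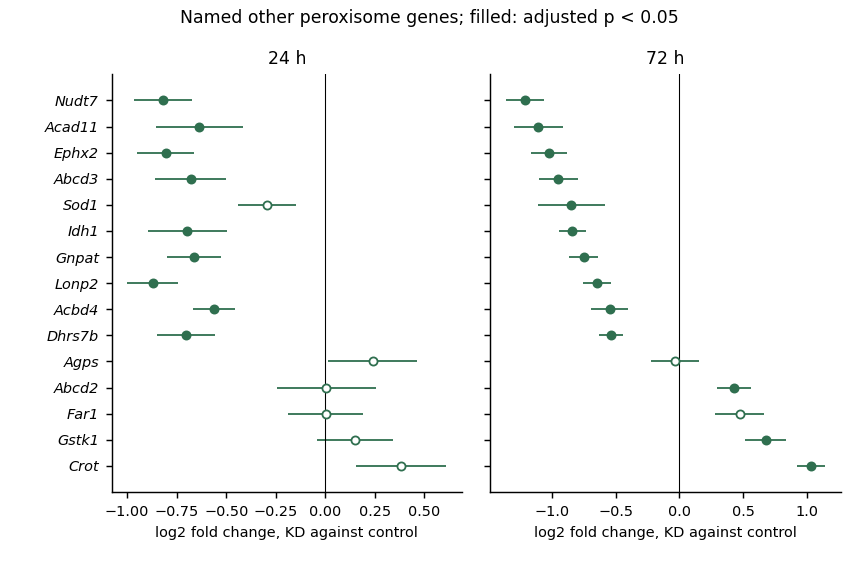
Log2 fold change of KD against control (± SE, limma) for the 15 genes of the second peroxisome list that are named in the text, at 24 h and 72 h, ordered by the 72 h value, with filled points for an adjusted p under 0.05. Nudt7, Acad11 and Ephx2 lie lowest at 72 h, and Crot lies highest at 1.03.

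Of 8 receptors and coregulators listed for these genes, 5 fell at 24 h and 4 at 72 h, and none rose (62.5% and 50.0%, beside 11.6% and 12.9% of all genes called lower). Ppara had 4.93, 6.33 and 8.22 in control and 3.14, 3.45 and 4.69 in KD libraries at 24 h, and 5.58, 5.33, 5.35, 6.26 and 6.57 against 1.46, 1.81 and 3.94 at 72 h. Its log2 differences were -0.80 ± 0.18 and -1.42 ± 0.25 (SE, adjusted p = 0.0070 and 0.0012), without overlap at either time. Rxra fell by 1.08 and 1.35 on the log2 scale (adjusted p = 0.0065 and 0.0031). Pparg fell at 24 h (-0.44 ± 0.15, adjusted p = 0.046) and had -0.18 ± 0.09 at 72 h (adjusted p = 0.19). Ppargc1a, a coactivator of heat production, had -0.73 ± 0.26 at 24 h (adjusted p = 0.057) and fell at 72 h (-1.27 ± 0.23, adjusted p = 0.0016), and Prdm16 fell at both times (-1.68 ± 0.31 and -1.36 ± 0.34, adjusted p = 0.0023 and 0.012). Ppargc1b fell at 24 h (-0.75 ± 0.21, adjusted p = 0.018) and had -0.52 ± 0.24 at 72 h (adjusted p = 0.14). Ppard had -0.85 ± 0.31 and -0.63 ± 0.27 (adjusted p = 0.063 and 0.12). Rxrb had values of the opposite sign, 0.58 ± 0.36 and 0.59 ± 0.22 (adjusted p = 0.25 and 0.066), with means of 1.80 in control and 2.59 in KD libraries at 24 h and of 1.97 and 3.04 at 72 h.

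The core motif AGGTCA, which PPAR and RXR read, was searched on both strands in the 250 bases before the RefSeq gene start (GRCm38.p6). Promoters were given for 23 of the 29 members, and the motif stood in a promoter of 3 of them (13.04%) beside 14.02% of all 32851 promoters. The member share counts genes and the other share counts promoters, of which a gene may have more than 1, so the shares are not strictly alike. The direct repeat of this motif with 1 base between, AGGTCANAGGTCA, was found in 0 of the 23 and in 0.0335% of all promoters. The members with the motif were Cat, Scp2 and Pex11g, of which Scp2 was called. Their windows are shown 5′ to 3′ on the minus strand, on which all of these genes lie, to give the motif (in capitals) in its context. In GENCODE the windows of Cat and Pex11g lie between genes, and that of Scp2 lies in an intron of the longer Scp2 gene model.
Cat, chr2:103485325-103485384: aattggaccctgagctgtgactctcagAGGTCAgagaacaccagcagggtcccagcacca
Scp2, chr4:108118624-108118683: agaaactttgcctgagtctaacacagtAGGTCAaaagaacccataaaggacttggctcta
Pex11g, chr8:3467789-3467848: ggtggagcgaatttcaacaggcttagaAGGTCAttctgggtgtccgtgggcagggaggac
The first base of the motif stood 204, 109 and 173 bases before the RefSeq start used for Cat, Scp2 and Pex11g. For Scp2 that start lies within the longer gene model, and whether the entry read here begins there was not tested. A match of these letters is a description and not a site of binding.

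General markers of the fat cell moved with these results. Of 10 adipocyte markers, 4 fell at 24 h and 5 at 72 h, beside 11.6% and 12.9% of all genes called lower. Adipoq fell by 0.55 and 0.96 on the log2 scale. The log2 difference was below 0 for all 10 markers at 24 h and for 9 at 72 h. Cidec went the other way at 72 h, with means of 2117 in KD and 1975 in control samples. The summed level of the list was 40112 to 53367 in KD against 53433 to 55847 in control samples at 24 h. At 72 h it was 28163 to 37257 against 39579 to 50812. Most of this sum came from Fabp4, with a mean of 45318 in control samples at 24 h, so it says little about the other markers. The 5 brite markers fell in 4 cases at 24 h and 5 at 72 h, with summed levels of 378 to 728 in KD and 1258 to 2120 in control samples at 72 h. Preadipocyte markers gave 0 calls of 7 at 24 h and 3 of 6 at 72 h, Cd34 and Pdgfrb higher and Zfp423 lower, with overlapping summed levels. Among 8 macrophage markers 3 could be tested, of which Csf1r rose at both times and Lyz2 fell at 72 h. Their summed level was at most 32.0 in any sample and overlapped between KD and control at both times, and that of 6 endothelial markers was at most 3.03. The part of these markers in the results above was not tested.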

How the data were processed

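The authors prepared 3′ end libraries by bulk RNA barcoding from total RNA, mapped the reads with the Genomatix suite and, per the study's methods, tested RefSeq transcripts with DESeq2; the version and the genome build for these libraries are not given in the sources used here. The deposited values are RPKM of 168326 transcript entries (31754 RefSeq, 48232 Ensembl, 88340 GenBank cDNA) in 24 libraries, with 0 columns left unused. Entries of a gene overlap, so counts are given over 1 entry per gene. Groups and replicate numbers came from the sample titles. Library totals and whole reads were recovered from the steps in RPKM. Of low values, 95.4% to 96.3% per library were whole within 0.1 read. Of Ensembl entries with a recovered length, 87.3% came within 1% of the GENCODE length. Recovered reads of abundant genes are uncertain. In 24 h controls Ech1 (2284 bp of exons) had 134 reads at 434 scaled RPKM, and Hsd17b4 (3404 bp) 987 at 90.2. The voom fit used these reads, and the filter used these lengths. A total of 3 reads of a 2 kb transcript were worth 0.277 to 1.08 RPKM in 23 libraries, which covers counting error only. In control 72 h replicate 6, 14.9% of low read numbers were odd, so its steps may be about 2 per read and its depth is uncertain; RPKM does not depend on this. 

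An entry was tested where at least as many samples as in the smaller group reached the RPKM worth 10 reads in the median library. Scale factors were computed within each comparison as trimmed means of log ratios (30% and 5% trimmed), and log2(RPKM + 0.1) was tested with lmFit and eBayes with trend in limma 3.58.1 (R 4.3.3), two-sided, with Benjamini-Hochberg adjustment over all entries and calls at an adjusted p under 0.05. Log2 differences on this scale understate the change of low genes. Values per sample are on 1 common scale over all samples. The fit was tested on simulated data. The members, the second list, the marker lists and the rule for named genes (all members, 11 chosen genes of the second list with the 5 others of largest called change, and the regulators) were chosen with earlier results of these data known. Further genes of the second list are named where their calls are listed, and were chosen after their values were seen. Alternatives were another pseudocount, no filter, other scalings, other entries per gene, all groups in 1 fit, a replicate block, voom on recovered reads, single clusters and leaving out each sample. Gene spans and overlaps are from GENCODE M21 (GRCm38), promoters from RefSeq (GRCm38.p6); 6 members had none and protein sequences were not used here. Some genes of the second list enter its counts but are not reported here by name.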

Additional observations from a re-analysis of the deposited data

Results flagged for a closer look

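In 10 of 112 combinations of a tested member and a group, 1 sample lay far from the others by Dixon's criterion, where chance alone gives about 1 in 20. Among the members called under KD, Pex14 was highest in control replicate 5 at 24 h (35.99 scaled RPKM, nearest other sample 26.0) and in control replicate 1 at 72 h (28.3, nearest 23.0), Pex13 was highest in KD replicate 5 at 72 h (21.2, nearest 15.98), and Hsd17b4 was lowest in control replicate 5 at 24 h (76.2, nearest 91.9). Without that control replicate Pex14 was no longer called at 24 h. KD 24 h replicate 6, the shallowest library, was highest for Pex7 (22.9, nearest 9.76) and lowest for Crat (14.8, nearest 21.2). In the 24 h controls, replicate 1 was highest for Pex2 (76.6, nearest 67.5) and Pex26 (2.79, nearest 1.41) and replicate 3 for Acot8 (20.1, nearest 14.9). Decr2 was lowest in control replicate 4 at 72 h (86.0, nearest 129.9). No member passed the test of a change in its KD effect between 24 h and 72 h.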

How the results depend on the processing

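The counts of called members (5 at 24 h, 5 at 72 h, 2 over time in control) moved with several settings. Shares over all genes stand above for the deposited scale at 72 h and the KD fits by cluster. They are not reported here for the other settings. A change of these counts therefore does not show that the members moved apart from all genes. With no filter they were 3, 3 and 1, with 0 enzymes at 24 h and 2 at 72 h. On the deposited scale 3 members were called at 24 h (1 enzyme), and at 72 h the calls were 3 peroxins and 1 enzyme, all higher. With all groups in 1 fit, 4 enzymes were called at 24 h and 1 member over time. With all 24 libraries kept separate, 2 peroxins were called at 72 h and 5 members over time, and voom on recovered reads called 3 peroxins at 72 h. Taking the highest entry of any database gave 8 members and 3 peroxins at 72 h. It added Pex2, Pex3 and Pxmp4 at 72 h and Crat at 24 h, all lower. The larger cluster alone gave 1 peroxin and 6 enzymes at 24 h, where Pex11a and Pex14 lost their calls, and 9 members, 2 peroxins and 7 enzymes at 72 h. The smaller cluster alone gave 1 member (1 peroxin, 0 enzymes) and 2 genes of the second list at 24 h, 2 members (1 enzyme) and 7 of the second list at 72 h, 1 member over time and 1 member whose KD effect changed between the times. With the cluster as a term, chosen after seeing the data, 3 peroxins were called at 72 h and 6 members over time. Pseudocount 1 and median-of-ratios scaling moved none of these counts by over 1.5 times. The causes of these shifts were not tested. A single cluster held fewer samples than the main fit, and the part of that number was not tested either.

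Replicate numbers are shared by the groups, but same-numbered samples did not deviate together (mean correlation -0.07 at 24 h and 0.03 at 72 h). The samples were therefore not treated as paired in the main fit. These deviations also carry the cluster split, which does not follow the replicate numbers from group to group, so pairing is not excluded. With a replicate block, 3 members (1 enzyme) were called at 24 h and 1 member, Phyh (0 peroxins, 1 enzyme), at 72 h, and Pex10 at 72 h stood at 0.16. At 24 h Pex14 and Phyh lost their calls (limma adjusted p = 0.075 and 0.079). At 72 h Pex13, Hsd17b4, Scp2 and Ech1 lost theirs (adjusted p = 0.083, 0.11, 0.097 and 0.055).

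Leaving out 1 sample gave 2 to 7 members at 24 h and 3 to 6 at 72 h, 0 to 3 over time and 0 to 0 for the change of effect. The ranges were 2 to 4 peroxins and 0 to 3 enzymes at 24 h, 1 to 3 peroxins and 2 to 5 enzymes at 72 h, and 9 to 13 and 13 to 18 genes of the second list. At 24 h the count was 2 without KD replicate 2 or 5 and 3 without KD replicate 1 or control replicate 1, 3 or 4. Enzymes at 24 h were 0 without KD replicate 1, 2 or 5 or control replicate 1, 3 or 4, and 1 without KD replicate 3 or 6 or control replicate 2. At 72 h members were 3 without KD replicate 1 or 2 or control replicate 6, and enzymes were 2 without any of these or control replicate 1. Peroxins at 72 h were 2 without KD replicate 3 or 5 or control replicates 2 and 3, and 3 without control replicate 1. Over time the count was 0 without 72 h control replicate 1 or replicates 2 and 3, and 1 without 72 h replicate 6 or 24 h replicate 5 or 6.

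Of the log2 differences called under KD, Hsd17b4 at 72 h changed sign, to 0.030 in the smaller cluster. The other differences that changed sign were not called at that time, although Pex13, Scp2 and Pex16 were called at the other time. In the smaller cluster at 24 h these were Pex2 0.087, Pex3 0.068, Pex10 -0.44, Pex11g 0.18, Pex13 0.079, Pex19 0.10, Ehhadh 0.38, Cat 0.10, Acot8 0.25, Amacr -0.13, Scp2 0.042, Hacl1 0.087 and Decr2 0.42, and at 72 h Pex10 0.42, Pex16 0.14, Acox3 0.25, Acaa1a 0.16, Acaa1b 0.37 and Crat 0.13. In the larger cluster they were Acox3 -0.046 and Acaa1a 0.11 at 24 h and Cat -0.035 and Amacr 0.0094 at 72 h. On the deposited scale they were Acaa1a 0.035 and Decr2 0.051 at 24 h and Pex3 0.056, Pex10 0.18, Pex19 0.045, Acox3 0.15, Amacr 0.17 and Pxmp4 0.029 at 72 h. Voom gave Acox3 -0.045 and Decr2 0.008 at 24 h, 24 separate libraries gave Pex10 0.027 at 72 h, the highest entry of any database gave Acox3 0.45 at 72 h, and leaving out 72 h control replicates 2 and 3 gave Cat -0.022. Without 1 sample, values that crossed 0 ranged at 24 h from -0.19 to 0.17 for Acaa1a, -0.11 to 0.13 for Acox3, -0.10 to 0.11 for Decr2, -0.15 to 0.044 for Ehhadh, -0.12 to 0.20 for Pex10, -0.24 to 0.13 for Pex26 and -0.11 to 0.26 for Pex7, and at 72 h from -0.18 to 0.095 for Amacr, -0.039 to 0.067 for Cat and -0.24 to 0.16 for Pex10.

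Depth limits the lowest genes most: Pex10 and Pex26 rested on 12.2 to 23.0 reads per library on average in each group, and Pxmp2 on fewer than 4.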
